A study of Danio rerio with 96 samples.

Results

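Whole zebrafish embryos were sampled as pools of 20 and as pools of 10, and 32 of the 96 samples in the series are described here: the 16 pools of 20 (pool20) and the 16 pools of 10 (pool10) whose RNA was extracted on 23 and 24 November. They were chosen by their labels, with no measured value used. The pool20 samples were exposed from 4 to 9 November and held 320 embryos in all, 8 samples being extracted on 23 November and 8 on 24 November, which was 14 and 15 days after the exposure ended. The pool10 samples were exposed from 2 to 7 November and held 160 embryos, again 8 samples per extraction day, at 16 and 17 days after the exposure ended. Every sample of both pool sizes was kept for 5 days in 0.1% dimethyl sulfoxide (DMSO), the solvent used as vehicle control in chemical exposures, and was taken at 120 hours post fertilization. No sample received a further chemical, and the labels give neither genotype nor strain. The series set pools of several sizes side by side in order to plan later dose-response work. Pool size and exposure differed together. Each set of 8 samples (a batch) also had its own extraction batch label and plate column, so pool20 and pool10 differed in both on each day. Pool size, exposure, extraction batch, plate column and the time between exposure and extraction therefore cannot be told apart in any result below. Nothing in the labels states that the 8 samples of a batch are separate cultures, and p-values therefore speak only of sample-to-sample spread, which may be technical.

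TempO-Seq is a targeted expression assay. Pairs of short detector oligonucleotides anneal next to each other on a transcript, are ligated where both have bound, and are then amplified and sequenced, so that a count belongs to a probe target and not to a whole transcript. The zebrafish surrogate panel used here holds probes for a chosen subset of genes. At the stage sampled the embryo is a free-swimming larva with a working heart, gut, liver and nervous system, and siblings differ from each other in growth and in the state of these organs. A pool mixes the RNA of its embryos before the library is made, so differences between embryos are averaged within a pool, and only the differences between pools remain in the counts.

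The count table has 3183 rows without gene or probe names. Features are therefore called by row number, counted from 1, and no pathway, organ or cell type can be assigned to them. Total counts of the 32 samples ran from 3791022 to 5870280. A count of 0 allows up to 3 counts, equal to 0.511 to 0.791 CPM (library-size-scaled counts; levels below use edgeR's TMM factors unless raw shares are named). That limit is for counting error alone, since reads are not tagged by molecule. Totals averaged 4683017 ± 596181 counts in pool20 and 4560529 ± 550639 in pool10 (SD, n = 16 each), and the difference was within the spread between samples (permutation within day, two-sided, 100000 resamples, p = 0.539, adjusted over 5 values 0.539). By day the sign differed: pool20 averaged 469962 counts more than pool10 on 23 November (exact permutation p = 0.0991, adjusted over 5 values 0.124). On 24 November pool20 minus pool10 was -224986 counts (exact permutation p = 0.423, adjusted over 5 values 0.529). These permutations did not hold sample number fixed, though totals followed it, with sample 6 highest in every batch. On 23 November each pool20 sample had more counts than the pool10 sample of the same number. On 24 November only samples 5 and 7 did. Sample 4 of the pool10 batch of 24 November lay farthest from the rest of its batch. Some results are also given without it, and the CPM values of single features and the spread by bin only with it.

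Pools of 20 and pools of 10 differed in the level of many features, by small amounts. With extraction day as a block, 788 of 3086 features (25.5%) had an adjusted p below 0.05 by edgeR's quasi-likelihood test with Benjamini-Hochberg adjustment; such features are said to be called. Of the 788, 376 were higher in pool20 (12.2% of those tested) and 412 were lower (13.4%). The number called was 431 of 3157 tested when each batch was summed to 1 sample, with 139 higher in pool20. Those sums leave 1 degree of freedom for the spread, so that count leans on spread borrowed across features. It was 338 with no day block, with 120 higher, and 31 with all 12 batches of the series in 1 fit, with 29 higher. The median absolute log2 change was 0.17 over all features and 0.35 over the called ones, 114 called features changed by more than 1.5-fold, and 3 by more than 2-fold. In the same samples the median absolute log2 change between 24 and 23 November, with pool size as a block, was 0.32, and 1907 features (61.8%) were called.

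The direction of the change went with abundance. When the features were ranked by mean CPM over all 32 samples and cut into 4 bins of equal size, the most abundant bin, from 121 to 49451 CPM, had 259 features higher in pool20 and 15 lower, with a median log2 change of 0.14. The next bin, from 37.2 to 120 CPM, had 84 higher and 70 lower, with a median of 0.03. The bin from 13.8 to 37.2 CPM had 29 higher and 206 lower, with a median of -0.13. The least abundant bin, from 1.26 to 13.8 CPM, had 4 higher and 121 lower, with a median of -0.20. Over all features tested the median log2 change was -0.0063, since TMM centres the samples on the bulk of the features. With total counts as library sizes, a setting chosen after the data were seen, the median over all features was -0.18, the most abundant bin had a median of -0.030 and the least abundant -0.38. 1110 features were then called, 70 higher and 1040 lower in pool20, against 376 and 412 with TMM. "Higher" and "lower" below are relative to the bulk of the features, and the gap between abundant and rare features was there under both scalings.

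**Figure D1:**
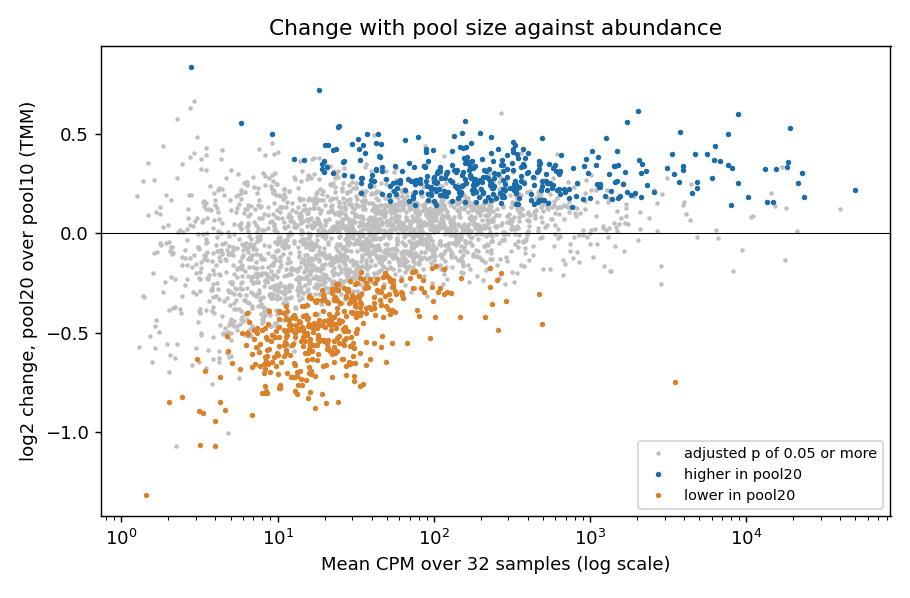
Log2 change of pool20 over pool10 with day as a block (vertical axis, TMM scaling) against the mean CPM over the 32 samples (horizontal axis, log scale), 1 point per feature. The 376 features called higher in pool20 lie mostly among abundant features and the 412 called lower mostly among rare ones.

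The same gap was seen in raw shares of the reads, which need no scaling factor. This measure was added once the values were known, with abundance ranked on these same 32 samples. Its p-values describe a gap already seen and are no separate support for it. Features below the median abundance took 2.15% ± 0.239 of the counts in pool20 and 2.72% ± 0.642 in pool10 (SD, n = 16 each; permutation within day, two-sided, 100000 resamples, p = 1.1e-04, adjusted over 5 values 4.2e-04), and all 16 pool20 samples lay below the pool10 mean of their day. On 23 November the share had a lowest, median and highest value of 1.94%, 1.99% and 2.18% in pool20, and of 1.96%, 2.203% and 2.85% in pool10 (exact permutation p = 0.0101, adjusted over 5 values 0.0253). On 24 November these were 1.82%, 2.42% and 2.56% in pool20, and 2.18%, 3.04% and 4.16% in pool10 (exact permutation p = 0.00249, adjusted 0.0124). The pool sizes overlapped on both days. Values also differed by sample number, in both pool sizes. On 23 November samples 1 to 4 averaged 2.03% ± 0.103 in pool20 and 2.55% ± 0.237 in pool10, and samples 5 to 8 averaged 1.99% ± 0.0381 in pool20 and 2.07% ± 0.0766 in pool10 (SD, n = 4 each). On 24 November samples 1 to 4 averaged 2.49% ± 0.0555 in pool20 and 3.58% ± 0.522 in pool10, and samples 5 to 8 averaged 2.08% ± 0.244 in pool20 and 2.67% ± 0.371 in pool10 (SD, n = 4 each). The mean of samples 1 to 4 was thus above that of samples 5 to 8 in all 4 batches, by little in the pool20 batch of 23 November.

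The 10 most abundant features were also taken in each sample on its own, so the set can differ between samples. They held 25.9% ± 1.42 of the counts in pool20 and 25.5% ± 1.85 in pool10 (SD, n = 16 each). These shares differed within the spread between samples (permutation within day, p = 0.319, adjusted over 5 values 0.399). The difference was 0.347 percentage points, and 0.541 without sample 4 of the pool10 batch of 24 November (permutation p = 0.0801, not adjusted). By day, the difference in the share of each sample's own 10 was 0.518 percentage points on 23 November and 0.176 on 24 November. The most abundant bin as a whole took 92.7% ± 0.150 in pool20 and 92.04% ± 0.513 in pool10 on 23 November. On 24 November it took 92.8% ± 0.576 in pool20 and 91.2% ± 1.22 in pool10 (SD, n = 8 each). The number of features with at least 5 counts averaged 3068 ± 26.8 in pool20 and 3080 ± 33.2 in pool10 (SD, n = 16 each), a difference within the spread between samples (permutation within day, p = 0.156, adjusted over 5 values 0.261). With a minimum of 20 counts the difference in mean number, pool20 minus pool10, was -54.4 features (permutation p = 0.0162), and after all libraries were thinned to 1 total it was -19.2 (permutation p = 0.0331), neither p adjusted. Without sample 5 of the pool10 batch of 23 November it was -15.9 at the minimum of 5 counts (permutation p = 0.0427, not adjusted).

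Among the 10 features with the largest increases, at a mean of at least 10 CPM and with the same direction on both days, log2 changes ran from 0.50 to 0.72. 10 of the 10 were called on 24 November taken alone and 1 of the 10 on 23 November, where 26% and 0.616% of all features were. The 10 were chosen as called changes on these samples, so nothing is read from these counts. The 1 called on both days, feature 2239, had the clearest increase. On 23 November it had a lowest, median and highest value of 197, 231 and 268 CPM in pool20, and of 137, 161 and 187 CPM in pool10, with no overlap. On 24 November the values were 111, 136 and 188 CPM in pool20, and 65.8, 97.8 and 115 CPM in pool10, overlapping at the edges. Its log2 change was 0.57 ± 0.08 (SE, edgeR adjusted p = 5.6e-06). Feature 2792, at a mean of 18.3 CPM, had the largest change of the 10, 0.72 ± 0.13 (SE, edgeR adjusted p = 1.9e-04), with medians of 25.5 CPM in pool20 and 17.1 CPM in pool10 on 23 November, and of 19.7 CPM in pool20 and 9.90 CPM in pool10 on 24 November.

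5 of these 10 features were above 1000 CPM. Feature 2926 had a lowest, median and highest value of 14633, 19990 and 23801 CPM in pool20 on 23 November, against 11558, 17429 and 22157 CPM in pool10. On 24 November these were 19405, 24139 and 32606 CPM in pool20, against 4312, 16046 and 18850 CPM in pool10. The pool sizes overlapped on the first day and not on the second, and its log2 change was 0.53 ± 0.14 (SE, edgeR adjusted p = 0.00774). Feature 1404 had 6666, 11872 and 15122 CPM in pool20 on 24 November, against 984, 6421 and 9355 CPM in pool10, and a log2 change of 0.60 ± 0.19 (SE, edgeR adjusted p = 0.021). On 23 November it had 7533, 10409 and 11335 CPM in pool20, against 4229, 8353 and 10567 CPM in pool10. The other features above 1000 CPM were 46, 1837 and 1223, with log2 changes of 0.61, 0.56 and 0.51. Feature 46 did not overlap between the pool sizes on 24 November, with 1957 to 3007 CPM in pool20 against 531 to 1824 CPM in pool10. In features 2926, 1404 and 46 the lowest of these pool10 values of 24 November came from sample 4. Among the 10, the same held for features 2792, 2239, 1837, 1223 and 70, and not for 632 and 390. Leaving out any 1 sample kept the log2 changes of features 2926, 1404 and 46 at 0.46, 0.52 and 0.56 or more, each called by edgeR. The remaining features of the 10, 632, 390 and 70, changed by 0.54, 0.54 and 0.50 on the log2 scale.

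The 10 features with the largest decreases, under the same rule, had log2 changes from -0.88 to -0.77, which is 1.71-fold to 1.84-fold lower in pool20, and means from 10.2 to 24.4 CPM. 10 of the 10 were called on 24 November alone and 4 of the 10 on 23 November, namely 2114, 1752, 878 and 230. They too were chosen as called changes, and 26% of all features were called on 24 November and 0.616% on 23 November. Feature 2114 had a lowest, median and highest value of 5.67, 8.67 and 13.3 CPM in pool20 on 23 November, against 11.6, 16.5 and 23.4 CPM in pool10. On 24 November it had 11.2, 15.6 and 21.7 CPM in pool20, against 19.3, 27.8 and 36.7 CPM in pool10. The 2 pool sizes overlapped a little on each day, and the log2 change was -0.88 ± 0.13 (SE, edgeR adjusted p = 9.8e-06). Feature 878 did not overlap on 23 November, with 11.4, 13.6 and 17.2 CPM in pool20 against 17.3, 25.4 and 34.7 CPM in pool10. On 24 November it had 13.99, 21.6 and 27.3 CPM in pool20 against 23.2, 34.97 and 59.1 CPM in pool10, and its log2 change was -0.85 ± 0.12 (SE, edgeR adjusted p = 8.0e-06). Feature 1752 (-0.85 on the log2 scale) did not overlap on 24 November, with 13.3 to 20.5 CPM in pool20 and 25.01 to 42.8 CPM in pool10. Nor did feature 2044 (-0.81), with 9.51 to 26.03 CPM in pool20 and 26.04 to 42.1 CPM in pool10. Features 2804, 230, 1290, 1774, 1086 and 2168 had log2 changes of -0.83, -0.81, -0.80, -0.79, -0.78 and -0.77.

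**Figure D2:**
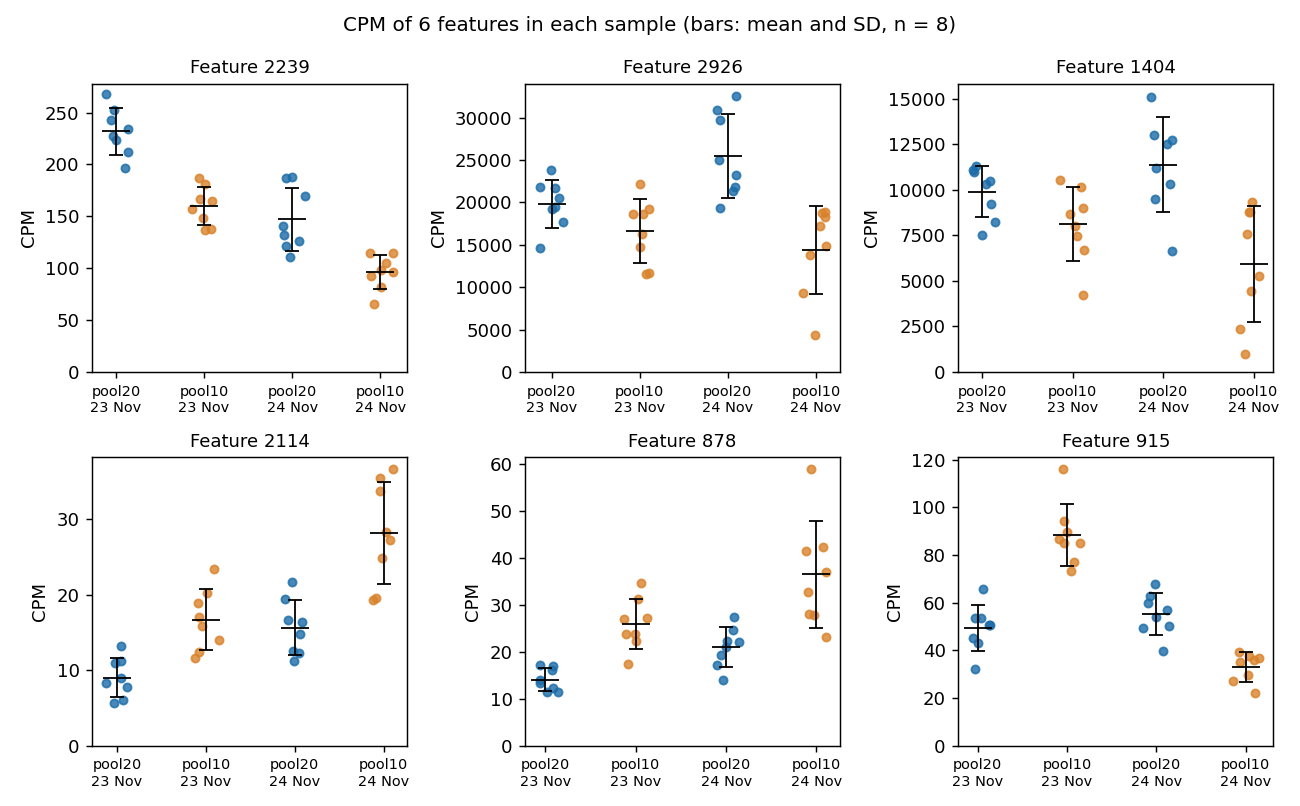
CPM of 6 features in each of the 32 samples (vertical axes, from 0), with the batches of each day side by side, pool20 left of pool10; bars give the mean and SD of 8 samples. Features 2239, 2926 and 1404 were higher and features 2114 and 878 lower in pool20 on both days, and feature 915 was lower in pool20 on 23 November and higher on 24 November.

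With TMM, abundant features were seldom called lower in pool20. Of 138 features with a mean of at least 1000 CPM, 69 were called higher and 1 lower. Of all features tested, 12.2% were higher and 13.4% lower. With total counts as library sizes only 70 of all features were called higher and 1040 lower, and the calls above 1000 CPM are given for TMM only. The feature called lower there, 1473, was named after its values were seen. It averaged 2066 ± 197 CPM in pool20 and 3208 ± 730 CPM in pool10 on 23 November, and 3114 ± 343 CPM in pool20 and 5544 ± 1470 CPM in pool10 on 24 November (SD, n = 8 each). Its log2 change was -0.74 (edgeR adjusted p = 2.6e-06), and on 24 November it ranged from 2501 to 3641 CPM in pool20 and from 3620 to 8123 CPM in pool10, touching at the edge. The 5 most abundant features of the panel, 2323, 2293, 2309, 2333 and 2999, had log2 changes of 0.22, 0.12, 0.18, 0.30 and 0.25 with TMM. 4 of the 5 were called by edgeR with TMM (adjusted p from 0.00833 to 0.0311), and feature 2293 was not (adjusted p = 0.0598). With total counts as library sizes their log2 changes were 0.05, -0.04, 0.02, 0.15 and 0.09, and none of the 5 was called by edgeR (adjusted p from 0.0626 to 0.701).

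Taken separately, the extraction days gave very different counts of calls. On 24 November 803 features (26% of 3086) were called, 446 higher (14.5%) and 357 lower (11.6%) in pool20, and without sample 4 of the pool10 batch of that day the number was 517. On 23 November 19 features (0.616%) were called, 2 higher and 17 lower, with 352 at an unadjusted p under 0.05 by edgeR. DESeq2 called 40 there, and leaving out 1 sample in turn gave 17 to 38. The number was 38 without sample 7 and 29 without sample 8 of the pool10 batch of that day, and 30 without sample 8 of the pool10 batch of 24 November, which shares the fit. The median absolute log2 change was 0.24 on 24 November and 0.13 on 23 November. A test of the difference between the days, the interaction of pool size and day, called 2 features (0.0648%), with 268 at an unadjusted p under 0.05 by edgeR. Leaving out 1 sample in turn gave 1 to 3 called interactions, and feature 1896 lost its call in 17 of 32 such fits.

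The directions were mostly shared between the days, whose comparisons have no library in common. Of the 803 features called on 24 November, 735 (91.5%) had the same sign on 23 November, against 73.1% of all features tested. The 446 higher on 24 November had a median log2 change of 0.40 on that day and 0.13 on 23 November, and the 357 lower had -0.59 on that day and -0.29 on 23 November. Of the 19 called on 23 November, 15 were called in the same direction on 24 November, as were 735 of all 3086 features. Both days were tested in 1 fit, which shared its spread estimates and scaling. Across features, which are not independent replicates and which were scaled together, the log2 changes of the 2 days had a Pearson r of 0.52 and a Spearman rho of 0.59. No feature separated all 16 pool20 from all 16 pool10 samples (0%). Within a day, the 8 and 8 samples did not overlap in 17 features (0.551%) on 23 November and 55 (1.78%) on 24 November. 1 feature (0.0324%) did so in the same direction on both days. This feature, 431, named after its values were seen, ranged from 302 to 344 CPM in pool20 and from 246 to 297 CPM in pool10 on 23 November, and from 266 to 324 CPM in pool20 and from 197 to 234 CPM in pool10 on 24 November.

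**Figure D3:**
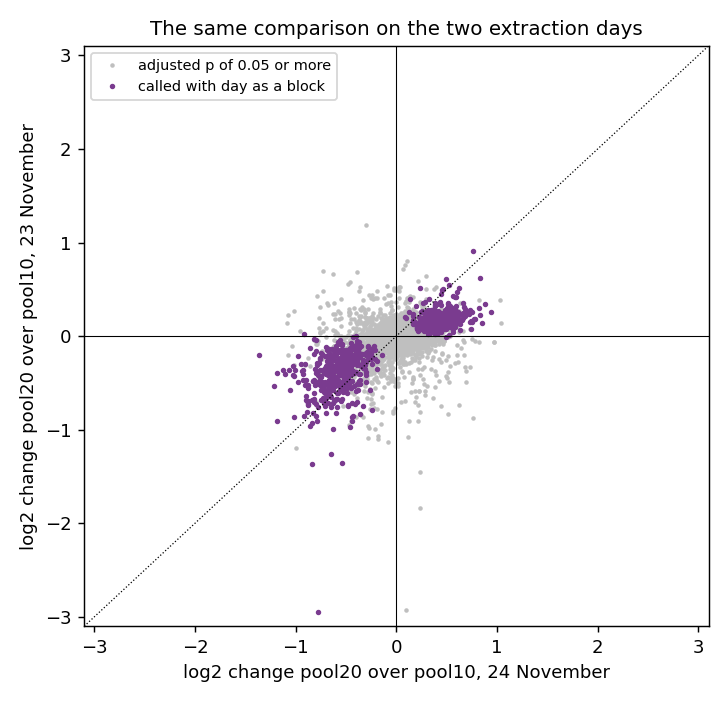
Log2 change of pool20 over pool10 on 23 November (vertical axis) against that on 24 November (horizontal axis), 1 point per feature, with the dotted line marking equal changes. Features called with day as a block are marked. That fit covers both days, so their place in the quadrants of equal sign was largely set in advance. The changes on 23 November (median absolute value 0.13) are smaller than those on 24 November (0.24).

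Feature 915 changed in opposite directions on the 2 days, with no overlap on either. On 23 November it had a lowest, median and highest value of 32.2, 50.5 and 65.6 CPM in pool20, against 73.1, 85.8 and 116 CPM in pool10, a log2 change of -0.87 (edgeR adjusted p = 6.7e-05). On 24 November it had 39.7, 55.4 and 67.9 CPM in pool20, against 21.99, 35.7 and 39.5 CPM in pool10, a log2 change of 0.76 (edgeR adjusted p = 1.4e-04). The levels in pool20 were close on the 2 days, and those of pool10 were not. The difference between the days was 1.63 on the log2 scale (edgeR interaction, adjusted p = 1.1e-07). The other called interaction, feature 1896, named after its values were seen because it lies under 10 CPM, averaged 5.801 ± 0.772 CPM in pool20 and 3.50 ± 0.847 CPM in pool10 on 23 November, and 6.396 ± 1.95 CPM in pool20 and 10.8 ± 3.22 CPM in pool10 on 24 November (SD, n = 8 each; edgeR interaction, adjusted p = 0.0375).

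In a principal component analysis of log2 CPM over these 3086 features, the first component held 38.3% of the variance and largely followed the extraction day. Sample 8 of the pool20 batch of 24 November, at -2.63, lay below 2 pool10 samples of 23 November. On 23 November pool20 lay at -17.8 ± 3.04 and pool10 at -10.9 ± 7.99, and on 24 November pool20 lay at 7.92 ± 5.51 and pool10 at 20.8 ± 8.47 (SD, n = 8 each). On each day pool10 was thus displaced from pool20 in the direction in which 24 November differed from 23 November. The pool10 batch of 23 November was split along it: samples 1 to 4 lay between -8.97 and -1.48, and samples 5 to 8 between -21.3 and -14.7, where the pool20 samples 1 to 8 of that day lay between -20.7 and -10.8. On 24 November samples 1 to 4 averaged 11.9 in pool20 and 25.9 in pool10, and samples 5 to 8 averaged 3.95 in pool20 and 15.8 in pool10. Without samples 5 to 8 of both batches of 23 November, the count called with day as a block was 898, and 17 on 23 November alone. The part of sample number in the pool size difference was not tested further.

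Libraries outside the comparison mostly gave the opposite direction for the features higher in pool20 in November. The third batches of the 2 pool sizes, 8 samples each, differ by pool size too: pool20 batch 3 came from the exposure of 4 to 9 November and was extracted on 15 December, 36 days after it ended, and pool10 batch 3 came from an exposure of 13 to 18 December and was extracted on the day it ended. Between them edgeR called 1588 of 2705 features (58.7%), 849 higher and 739 lower in pool20. Of the 698 features called in November and tested there, 93 (13.3%) had the same sign, against 29.5% of all 2701 features tested in both. The 375 higher in the November pool20 samples had a median log2 change of -0.37 between the third batches, and the 323 lower had 0.64. The same sign was seen in 49 (13.1%) of the 375 higher and in 44 (13.6%) of the 323 lower. 9 of the 10 named increases were called lower. Only 4 of the 10 named decreases passed the filter on low counts there, and those 4 were called higher. That filter kept 375 of the 376 features higher in November and 323 of the 412 lower. A rare feature could pass it through the third batch in which it was higher. Those 4 calls, the median of 0.64 and the 44 of 323 are therefore no test of direction. The shares of 13.3% and 29.5% include such features, so direction is read from the 375 alone. Feature 2926 averaged 17047 ± 1837 CPM in pool20 and 25804 ± 2807 CPM in pool10 there, and feature 70 averaged 212 ± 14.7 CPM in pool20 and 587 ± 49.98 CPM in pool10. Feature 878, a decrease in November, averaged 11.3 ± 2.72 CPM in pool20 and 4.204 ± 1.74 CPM in pool10 (SD, n = 8 each). Exposure month, time to extraction, extraction date, extraction batch label and plate column differ between the third batches together with pool size and cannot be told apart from it.

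**Figure D4:**
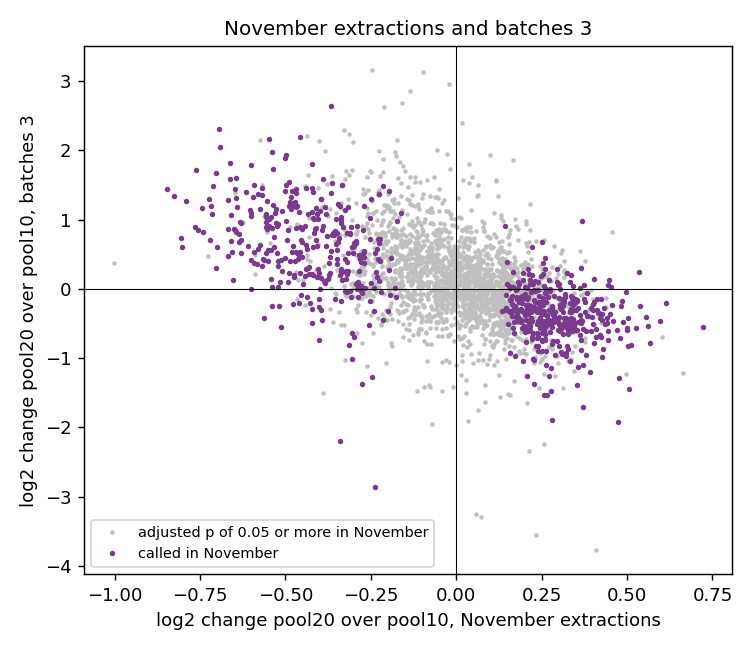
Log2 change of pool20 over pool10 between the third batches (vertical axis) against that of the November extractions with day as a block (horizontal axis), for the 2701 features tested in both. Called features lie mainly in the quadrants of opposite sign, with 93 of 698 in those of equal sign. Of the 375 higher in November, 49 had the same sign. The 323 lower are no test of direction, since the filter on low counts could keep rare features through the third batch in which they were higher.

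Features that varied little between single embryos were the ones more often higher in pool20. Ranked by their dispersion among the 24 single-embryo samples, which are no part of the comparison, the least variable of 4 bins held 202 features higher and 13 lower of 672, and the most variable bin held 12 higher and 171 lower of 673. The median mean CPM of these bins was 193 and 14.01, so variability and abundance went together and their parts were not separated. Features called between pools of 10 and single embryos that shared an exposure and an extraction day in December, on libraries outside the comparison, numbered 193 of 2567 (7.52%) by edgeR. Of the 95 of them that were higher in the pools of 10 and tested here, 24 (25.3%) were higher and 3 (3.16%) lower in pool20 than in pool10. Their median log2 change was 0.11 and their median mean CPM 176. Of all features tested 12.2% were higher and 13.4% lower. In the bin from 121 to 49451 CPM, which holds that median, 33.5% were higher and 1.94% lower, with a median log2 change of 0.14. The share higher was thus not above that of abundant features. Of the 97 that were lower in the pools of 10, 9 (9.28%) were higher and 13 (13.4%) lower in pool20, shares near those of all features. Their median log2 change was -0.02 and their median mean CPM 56.1. The bin from 37.2 to 120 CPM, which holds that median, had 10.9% higher and 9.08% lower, with a median log2 change of 0.03.

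Samples of 20 embryos were more alike than samples of 10. Within a batch, the coefficient of variation (taken as the root of the common dispersion from edgeR) was 14.5% in pool20 and 20.2% in pool10 on 23 November, and 17.9% in pool20 and 25.7% in pool10 on 24 November. The ratio of pool20 to pool10 was 0.717 on 23 November and 0.696 on 24 November. With 2 batches per pool size these ratios have no test. The spread within the pool10 batch of 23 November followed sample number in part: with samples 1 to 4 and 5 to 8 fitted apart, the coefficients were 13.9% in pool20 and 15.9% in pool10 on 23 November, and 16.3% in pool20 and 25.1% in pool10 on 24 November, with ratios of 0.875 on 23 November and 0.647 on 24 November. Samples 1 to 4 alone gave 13.1% in pool20 and 14.6% in pool10 on 23 November, a ratio of 0.892. Without sample 4 of the pool10 batch of 24 November the ratio on that day was 0.789.

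Measured per sample, the distance of a sample from the mean of the other 7 of its batch (root mean square over features with a mean of at least 50 counts, in log2 CPM) averaged 0.283 ± 0.0314 in pool20 and 0.358 ± 0.0845 in pool10 (SD, n = 16 each). All 16 pool20 samples lay below the pool10 mean of their day (permutation within day, two-sided, 100000 resamples, p = 1.7e-04, adjusted over 5 values 4.2e-04). The pool10 mean of 24 November, 0.387, was raised by sample 4 at 0.620, and the highest pool20 distance of that day was 0.360. That tally of 16 was not redone without sample 4. The distances of a batch depend on each other, and they were permuted as finished values without being recomputed. These p-values thus treat samples as replicates, while spread belongs to a batch, of which each pool size had 2. They do not test the pool sizes over batches. On 23 November the lowest, median and highest distances were 0.243, 0.275 and 0.296 in pool20 and 0.288, 0.326 and 0.384 in pool10 (exact permutation p = 3.1e-04, adjusted over 5 values 0.00155), with a small overlap. On 24 November they were 0.243, 0.290 and 0.360 in pool20 and 0.252, 0.378 and 0.620 in pool10 (exact permutation p = 0.0267, adjusted 0.0668), so that day alone did not pass after adjustment. Sample 4 had the distance of 0.620, and the next highest was 0.434. Without that sample the difference over both days was -0.0597, against -0.0753 with it, and leaving out any 1 of the 32 samples kept the permutation p at 0.00111 or lower. Without samples 5 to 8 of both batches of 23 November the difference was -0.0466 (permutation p = 0.0294, not adjusted).

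**Figure D5:**
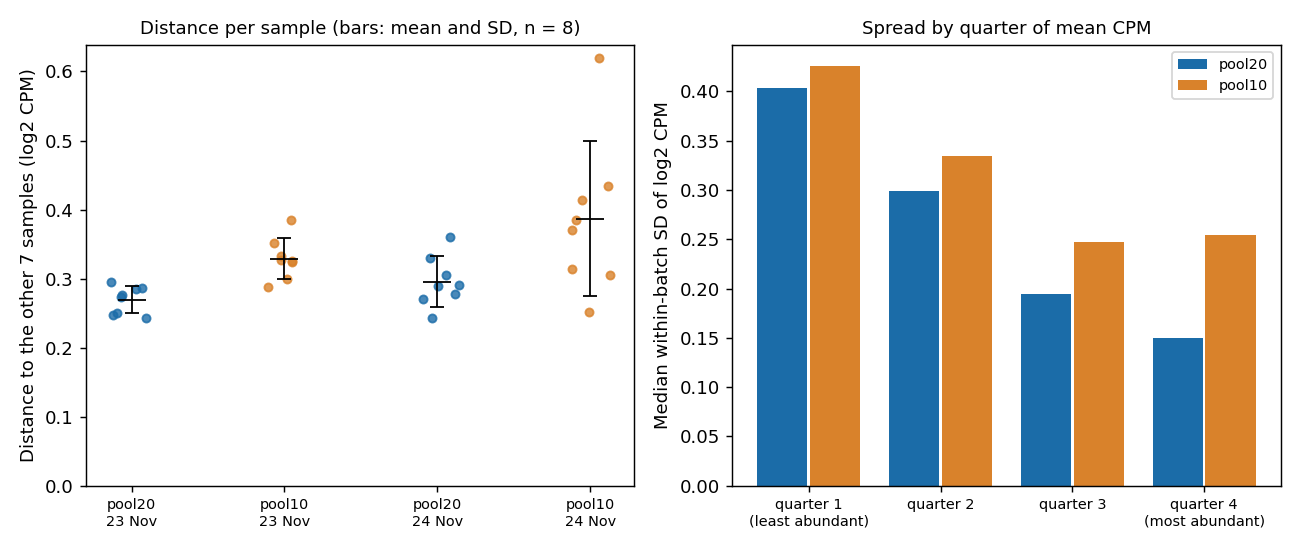
Left, distance of each sample to the mean of the other 7 samples of its batch (log2 CPM; bars give the mean and SD of 8 samples), with all 16 pool20 samples below the pool10 mean of their day. On 24 November that mean was raised by sample 4 of pool10, at 0.620. Right, median within-batch SD in log2 CPM for the 4 bins of mean CPM, pool20 beside pool10, with ratios of 0.926 in the least and 0.578 in the most abundant bin as medians over features. No sample was left out on either side.

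The narrower spread of pool20 was clearest among abundant features. Over 2471 features with a mean of at least 50 counts, the median within-batch SD in log2 CPM was 0.21 in pool20 and 0.29 in pool10, and the median ratio per feature was 0.761, with quartiles of 0.585 and 0.971. In the most abundant bin the median SD was 0.15 in pool20 and 0.25 in pool10, with a median ratio of 0.578. In the third bin the ratio was 0.787, in the second 0.894, and in the 156 features of the least abundant bin with enough counts 0.926. These SDs include counting error, which is larger for rare features. The ratios by bin were not recomputed without sample 4 of the pool10 batch of 24 November, nor with samples 1 to 4 and 5 to 8 fitted apart. 1325 features (53.6%) were less variable in pool20 on both days, where 70.5% were on 23 November and 73.3% on 24 November. Shares that high overlap widely even between unrelated days, so no agreement between the days is read from this. Features with an SD above 0.5 numbered 60 in pool20 and 196 in pool10.

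No single feature was called more or less variable. With limma applied to each sample's absolute deviation (Benjamini-Hochberg adjusted), 0 of 2471 features were called in either direction (0%). At an unadjusted p under 0.05 limma gave 466 less and 31 more variable in pool20, and 77.1% of the features deviated less in pool20. With a minimum mean count of 200, limma called 10 of 1438 features, all 10 less variable in pool20. Without sample 3 of the pool10 batch of 24 November limma called 4 features less variable, and without sample 4 of that batch 1. Without that sample 4, limma gave 315 less and 28 more variable at an unadjusted p under 0.05.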

How the data were processed

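The authors deposited raw read counts per feature, with no normalization. STAR 2.7.10a, RSEM 1.3.3, fastp 0.23.2, DESeq2 1.31.15 and bcl2fastq 2.20 are listed in the submitters' processing notes, without their roles. Build and annotation: not given in the sources used here. All 96 columns were matched to samples by name, and 32 entered the main comparison. Counts were tested with edgeR 4.0.16 (R 4.3.3; quasi-likelihood, its filter on low counts, TMM, extraction day as a block). Standard errors are the log2 change divided by the square root of F. Spread was tested with limma 3.58.1, each log2 CPM (prior count 2) being replaced by its absolute deviation from the batch mean. DESeq2 1.42.0, other scalings, batch sums and leaving out samples were alternatives. The 112 pairs of samples within a batch differed by a chi-square of at least 6.22 per degree of freedom, so none was a copy within counting error.

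Named features were, at a mean of at least 10 CPM and with equal signs on both days, the 10 largest called changes in each direction, called interactions (at most 3), features called in spread (none), and the 5 most abundant. Samples, rules and feature groups were chosen with earlier results of these data known.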

Additional observations from a re-analysis of the deposited data

Results flagged for a closer look

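Of 124 sets of 8 samples examined for 1 sample far from the rest, 4 had one, where chance flags about 1 in 20. In the pool20 batch of 23 November, sample 1 had 2.18% of its counts in features below the median abundance, and the other 7 had 1.94% to 2.04%. The same sample had 23100 CPM of feature 2309, with 24760 to 25610 CPM in the others. Sample 5 of the pool20 batch of 24 November had 12.7 CPM of feature 2792, with 17.9 to 21.5 CPM in the others. In the pool10 batch of 23 November, sample 1 had 32.04 CPM of feature 1752, with 14.1 to 22.6 CPM in the others. The pool size change of features 2792 and 1752 was called by edgeR in 32 of 32 fits that left out 1 sample, and that of feature 2309 in 25 of 32.

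The change with pool size differed between the extraction days in 2 features by edgeR's interaction test. The log2 change on 24 November minus that on 23 November was 1.63 for feature 915 (adjusted p = 1.1e-07, called in 32 of 32 fits that left out 1 sample) and -1.43 for feature 1896 (adjusted p = 0.0375, called in 15 of 32 such fits, with an adjusted p of up to 0.108). DESeq2 called feature 915 and gave feature 1896, at under 10 CPM, no adjusted p.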

How the results depend on the processing

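The 788 features called became 338 with no day block, 431 on the 4 batch sums, and 31 with all 12 batches in 1 fit. The batch sums leave 1 degree of freedom for the spread, and the fit of all 12 batches shares its spread with the single embryos. The number stayed within 1.5 times under DESeq2 (869), other factors, thinning and no filter. Leaving out 1 sample gave 653 to 913 calls over both days, 17 to 38 on 23 November, 517 to 983 on 24 November, 1 to 3 interactions and 0 to 4 features of different spread. On 23 November the number was 40 by DESeq2 and 36 with the replicate number as a block, against 19. The numbers were not taken to pair samples, since not every pair of same-numbered samples correlated above 0.1: 8 of 16 pairs of deviations did (range -0.086 to 0.38). 6 of 16 samples correlated best with their own number. On the third principal component samples 1 to 4 lay above samples 5 to 8 on average in all 4 batches. Sample 6 had the highest total counts and sample 3 the next highest in all 4 batches. Sample number thus went with part of the spread in the data, though the design does not name it, and the permutations did not hold it fixed. With the replicate number as a block 878 features were called over both days. Without samples 5 to 8 of 23 November 1 interaction was called, and feature 915 over both days had 0.22 on the log2 scale in place of -0.08, neither called. With total counts as library sizes the most abundant of the 4 bins had a median of -0.030 in place of 0.14, the least abundant -0.38 in place of -0.20, and feature 2293 had -0.043 in place of 0.12. Upper-quartile factors called 214 higher and 608 lower in pool20, and total counts 70 and 1040. 10 features were less variable at a mean count of at least 200, where the main filter gave 0. Detected features differed by -54.4 at 20 counts and by -19.2 after thinning, against -12.1 at 5 counts. Leaving out 1 sample moved this difference between -15.9 and -7.86, and that in total counts between 49673 and 193737. The difference in the share of each sample's own 10 most abundant features then ran from 0.239 to 0.541 percentage points. That in the share of features below the median abundance ran from -0.636 to -0.495, and that in distance from -0.0886 to -0.0597. The ratio of the coefficients of variation ran from 0.700 to 0.749 on 23 November and from 0.663 to 0.789 on 24 November, and the bin medians from 0.12 to 0.14 (most abundant) and from -0.23 to -0.17 (least abundant). Of 182 values of single named features under alternatives, 172 kept direction and side of the threshold. The causes were not tested.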
